A study of Mus musculus with 28 samples.

Results

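Prdm1, Prdm14 and Tfap2c are the transcription factors that set aside the founders of the germ line, the primordial germ cells (PGCs), from the mouse epiblast. They were taken by gene symbol from the deposited expression table, and all 3 of them were found among its 53564 gene rows. Prdm1 (also called Blimp1) represses the somatic programme of nascent PGCs. Prdm14 represses DNA methyltransferase and FGF receptor genes and helps to restore a pluripotency network. Tfap2c (AP-2 gamma) acts with both and activates genes of the germ line. BMP signals, made competent by WNT, switch the 3 genes on in the epiblast, and stem cell cultures that are turned into epiblast-like cells and then given BMP4 go through the same steps.

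RNA was sequenced from mouse cells of strain C57BL6 in a study of how telomere length bears on PGC fate. RT cells came from embryonic stem cells in which Terc, the RNA template of telomerase, had been restored after its loss, ST cells from Terc knockout stem cells of generation 4 with short telomeres, and LT cells from wild type stem cells with long telomeres. In each line stem cells were held for 2 days as epiblast-like cells and aggregated with BMP4, SCF, EGF and LIF, and aggregates of day 1 are the 1dEB groups (day-1 embryoid bodies). The 1dMeioLC groups (meiocyte-like cells) had 4 days of that induction, then 1 day of culture with 3 µM retinoic acid and somatic cells that carry GFP, from female gonads of E12.5, after which GFP-negative cells were sorted. PGC-1dMeioLC libraries came from PGCs of E10.5 embryos after that same culture, and E10.5PGC libraries from such PGCs as sorted with antibodies to integrin beta 3 and SSEA1. Each of these 8 groups had 2 libraries. The epiblast-like stage and the PGC-like stage of day 4 were not analysed here. The sources used here do not give how the rescue was made, nor whether the libraries of a group came from separate cultures, clones or embryos, so p-values measure only the spread between these libraries, which may be technical.

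Values were TPM, transcript abundances per unit length that add up to a fixed total in each library and carry no read depth. Nuclear protein-coding genes held 27.1% to 29.1% of TPM in RT 1dEB libraries, 44.0% to 44.4% in ST 1dEB, 38.6% to 38.8% in LT 1dEB and 54.2% to 61.2% in all other libraries. Levels are therefore given as scaled TPM, in which the nuclear protein-coding genes add up to 1000000 in every library. Log2 changes are differences of log2(scaled TPM + 1), which understates the change of low values, and were tested with limma over 21935 genes with Benjamini-Hochberg adjustment. Terc was listed at 0 in all 4 ST libraries and in the 2 of PGC-1dMeioLC, whose labels name no knockout, and stood between 0.699 and 5.39 TPM in the other 10. Markers of other cells moved with the groups. Summed over 8 fibroblast and stroma markers, scaled TPM was 644 to 657 in RT 1dEB, 1134 to 1161 in ST 1dEB and 51.3 to 58.0 in LT 1dEB. All 6 gonadal somatic markers reached 1 TPM in each 1dMeioLC group, with sums of 149 to 150 in RT, 250 to 255 in ST and 172 to 178 in LT. No marker of these lists was listed at 0 in the groups named. Dppa3, a maternal and PGC factor, averaged 550 scaled TPM in RT 1dMeioLC, 50.6 in ST 1dMeioLC, 841 in LT 1dMeioLC, 781 in PGC-1dMeioLC and 4928 in E10.5PGC. The part of these cell types in the results below was not tested, and in such bulk libraries fewer cells of a type and less RNA per cell cannot be told apart.

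The 3 genes lie on different chromosomes of mm10 and overlap no other gene of the GENCODE M21 annotation. Prdm1 spans chromosome 10, 44437177 to 44528501, on the minus strand, with 4 annotated transcripts. Prdm14 spans chromosome 1, 13113457 to 13127163, on the minus strand, with 1 transcript, and Tfap2c chromosome 2, 172549593 to 172558622, on the plus strand, with 6. The table gives 1 value per gene, so transcripts were not separated here.

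On scaled TPM, embryonic PGCs held the highest levels of Prdm1 and Prdm14, while Tfap2c was highest in rescued embryoid bodies. On TPM as deposited, Tfap2c was instead highest in E10.5PGC, averaging 22.96 against 14.04 in RT 1dEB. RT 1dEB and E10.5PGC were not compared in a test. Prdm1 averaged 18.5 ± 0.581 scaled TPM (SD, n = 2) in E10.5PGC and 7.36 ± 0.333 in PGC-1dMeioLC, and then came ST 1dEB (6.68 ± 0.166), LT 1dMeioLC (6.07 ± 0.552) and ST 1dMeioLC (5.32 ± 0.242). The lowest Prdm1 levels were those of RT 1dEB (3.57 ± 0.865), LT 1dEB (3.44 ± 0.511) and RT 1dMeioLC (2.64 ± 0.406). On TPM as deposited, RT 1dEB was the lowest of these (0.998), then LT 1dEB (1.33) and RT 1dMeioLC (1.60). Among neighbours in the scaled order, only RT and LT 1dEB had libraries that overlapped. Lack of overlap between groups of 2 libraries is not a call, and its share over all genes was not computed. LT and ST 1dMeioLC did not overlap for Prdm1, yet this gene was not called between them (limma adjusted p = 0.473). Prdm14 averaged 33.3 ± 0.303 scaled TPM in E10.5PGC, 16.4 ± 1.40 in ST 1dMeioLC and 9.32 ± 0.597 in PGC-1dMeioLC. It stood lower still in LT 1dMeioLC (7.88 ± 1.66), ST 1dEB (7.16 ± 0.585), RT 1dMeioLC (6.34 ± 0.427), RT 1dEB (5.77 ± 1.15) and LT 1dEB (4.99 ± 0.370). From PGC-1dMeioLC down, each group overlapped its next lower neighbour except ST 1dEB, whose libraries both lay above those of RT 1dMeioLC. Tfap2c averaged 50.0 ± 1.82 scaled TPM in RT 1dEB, 37.6 ± 2.62 in E10.5PGC and 32.0 ± 2.65 in LT 1dEB, ahead of ST 1dEB (19.7 ± 1.02) and PGC-1dMeioLC (19.7 ± 1.98). The 1dMeioLC groups of the stem cell lines were lowest, at 12.1 ± 0.235 in LT, 10.1 ± 2.72 in ST and 9.91 ± 0.364 in RT. Neighbouring Tfap2c groups overlapped between ST 1dEB and PGC-1dMeioLC, between LT and ST 1dMeioLC and between ST and RT 1dMeioLC. On scaled TPM the highest group mean exceeded the lowest 7.02-fold for Prdm1, 6.68-fold for Prdm14 and 5.04-fold for Tfap2c. These ranges change with the scaling. Each gene was above 0 in every library.

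**Figure D1:**
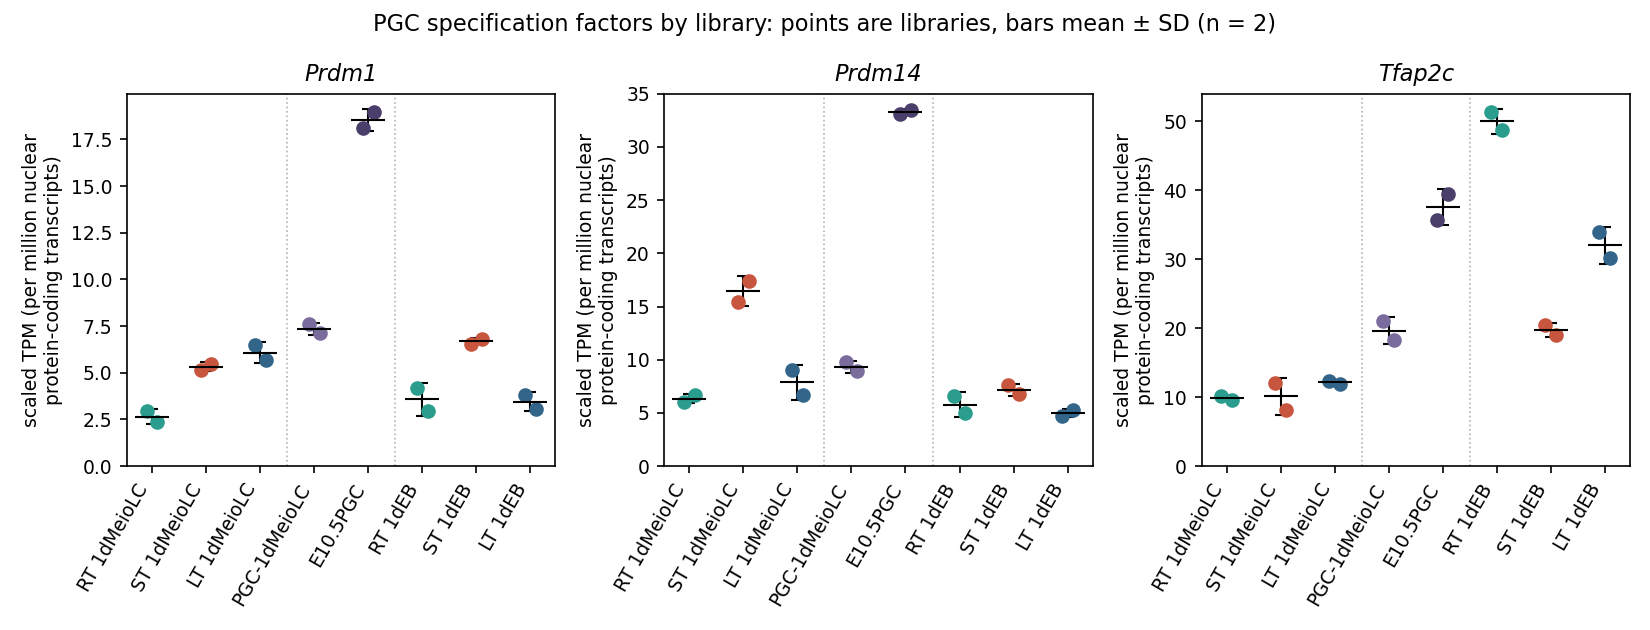
Scaled TPM of Prdm1, Prdm14 and Tfap2c (vertical axes) in the 8 groups (horizontal axes); points are libraries, horizontal bars group means and whiskers 1 SD (n = 2). Prdm1 and Prdm14 peaked in E10.5PGC at 18.5 and 33.3 scaled TPM, and Tfap2c in RT 1dEB at 50.0. On TPM as deposited, Tfap2c was highest in E10.5PGC.

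On day 1 of induction the factors did not move together in the short-telomere line: Prdm1 and Prdm14 were higher and Tfap2c lower in ST than in LT 1dEB. Prdm1 had 6.57 and 6.80 scaled TPM in ST 1dEB, against 3.80 and 3.08 in LT 1dEB. Both ST libraries lay above both LT libraries, with a log2 change of 0.80 (SE 0.15, limma adjusted p = 0.00174), and quantile normalization of the deposited TPM put it at 0.49. Prdm14 had 7.57 and 6.75 scaled TPM in ST 1dEB, against 4.72 and 5.25 in LT 1dEB. The groups did not overlap and the log2 change was 0.45 (SE 0.15, adjusted p = 0.0388), but this call rested on all 4 libraries. It was lost without ST 1dEB replicate 1 (0.168) or 2 (0.0645) and without LT 1dEB replicate 1 (0.162) or 2 (0.0697), and also with quantile normalization (log2 change 0.22, 0.258). Tfap2c had 20.4 and 19.0 scaled TPM in ST 1dEB, against 33.9 and 30.1 in LT 1dEB. Here the ST libraries were the low ones, with a log2 change of -0.67 (SE 0.14, adjusted p = 0.00357). Visceral endoderm also expresses Prdm1 in mouse embryos, and trophoblast expresses Tfap2c. Of 5 endoderm markers 4 reached 1 TPM in ST 1dEB and 0 in LT 1dEB, with sums of 26.0 to 28.1 and 1.63 to 1.79 scaled TPM (5.51 to 7.66 in RT 1dEB), and none was listed at 0. The sums of 6 trophoblast markers were 161 to 172 scaled TPM in RT 1dEB, 199 to 204 in ST 1dEB and 99.4 to 103 in LT 1dEB, with 3 of them at 1 TPM in each group. Most of each sum came from the general keratins Krt8 and Krt18. Without both, they were 11.6 in both RT 1dEB libraries, 5.28 to 6.95 in ST and 5.49 to 9.80 in LT. Gata3 averaged 5.10 scaled TPM in ST 1dEB and 5.04 in LT 1dEB, and Cdx2, a defining trophoblast factor, 0.663 and 1.54. The part of these cells was not tested. All 3 genes were called, 2 higher and 1 lower, in a comparison that called 40.7% of all genes (22% of all genes higher and 18.7% lower).

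In the rescued line Prdm1 was lower and Tfap2c higher than in ST at 1dEB. Prdm1 had 4.18 and 2.96 scaled TPM in RT 1dEB, below both ST libraries, and its log2 change in RT against ST was -0.76 (SE 0.15, limma adjusted p = 0.00306). Tfap2c had 51.3 and 48.7 scaled TPM in RT 1dEB, above every ST and LT library of that stage. Its log2 change was 1.30 against ST (SE 0.14, adjusted p = 7.58e-05) and 0.63 against LT (SE 0.14, adjusted p = 0.00605). Prdm14 had 6.59 and 4.96 scaled TPM in RT 1dEB, where the lower library lay inside the LT range and both lay below ST. It was not called in RT against ST (log2 change -0.28, 95% interval -0.62 to 0.06, adjusted p = 0.191). Neither Prdm14 (0.17, interval -0.17 to 0.51, adjusted p = 0.426) nor Prdm1 (0.03, interval -0.30 to 0.37, adjusted p = 0.906) was called in RT against LT. RT against ST called 35.7% of all genes and RT against LT 37.9%, so 2 of the 3 factors were called in the first and 1 in the second against a background of that size. The 3 comparisons of this stage share libraries.

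Several results of RT 1dEB depended on the scaling. On deposited TPM, with no scaling, the median of all genes was -0.38 in RT against ST and -0.17 in RT against LT, where scaling put it at 0.04 and 0.10. Tfap2c then stood at 0.63 against ST (limma adjusted p = 0.00268) and was no longer called against LT (0.17, adjusted p = 0.362). Prdm14 was called lower in RT than in ST on deposited TPM (-0.67, adjusted p = 0.00122). In RT against LT, Prdm1 and Prdm14 changed sign without being called (-0.22 and -0.17). The rise of Prdm1 and the fall of Tfap2c in ST against LT, and the lower Prdm1 and higher Tfap2c in RT against ST, were called on deposited TPM, on scaled TPM and after quantile normalization.

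**Figure D2:**
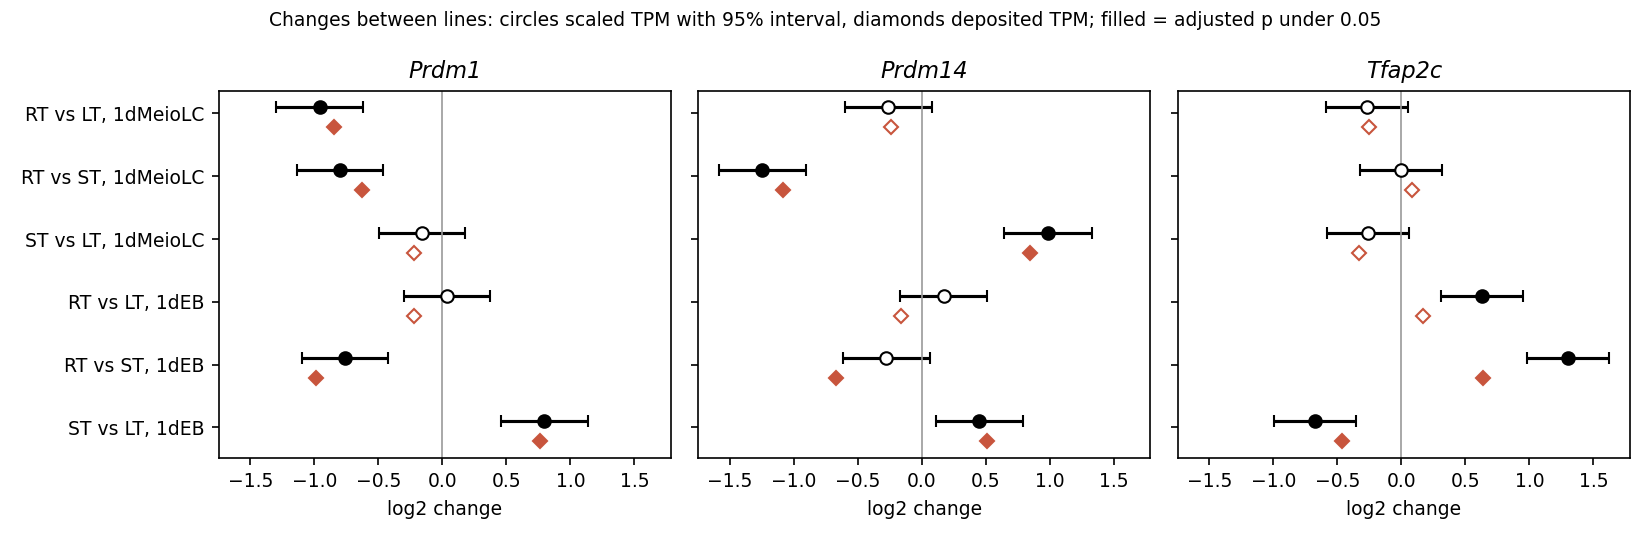
Log2 changes (horizontal axes) of the 3 genes in the 6 comparisons between lines (vertical axis); circles are scaled TPM with 95% intervals of limma, diamonds deposited TPM, and filled symbols have an adjusted p under 0.05. At 1dEB Tfap2c lay at -0.67 in ST against LT and 1.30 in RT against ST, while Prdm14 was at 0.98 and -1.25 in the same comparisons of 1dMeioLC.

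In meiocyte-like cells the gene that set ST apart was Prdm14. It had 6.04 and 6.64 scaled TPM in RT 1dMeioLC, 15.5 and 17.4 in ST 1dMeioLC and 9.05 and 6.70 in LT 1dMeioLC. Both ST libraries lay above all others of that stage, with a log2 change of 0.98 in ST against LT (SE 0.15, limma adjusted p = 8.44e-04) and -1.25 in RT against ST (SE 0.15, adjusted p = 2.25e-04). RT against LT was not called for Prdm14 (-0.26, 95% interval -0.60 to 0.08, adjusted p = 0.284). Beside this, the summed level of 7 PGC markers was 154 to 160 scaled TPM in ST 1dMeioLC and 962 to 1008 in LT 1dMeioLC. Dppa3 made up most of the LT sum, and without it the sums were 105 to 108 in ST and 142 to 146 in LT. Of the single markers, Pou5f1 averaged 10.7 scaled TPM in ST and 2.95 in LT, and Itgb3 5.10 and 3.23. The rest were lower in ST, with Nanos3 at 66.2 and 86.8, Kit at 15.9 and 24.2, Dnd1 at 6.88 and 19.3, Fut4 at 1.69 and 7.89, and Dppa3 as given above. The gonadal germ cell and meiosis markers Ddx4, Dazl, Stra8 and Sycp3 were each lower in ST too. Their sums were 877.2 to 878.5 scaled TPM in ST and 2359 to 2360 in LT. The part of PGC content in the Prdm14 level was not tested. Prdm1 was instead lowest in RT, with 2.93 and 2.35 scaled TPM in RT 1dMeioLC, 5.15 and 5.49 in ST and 6.46 and 5.68 in LT. Its log2 change was -0.80 in RT against ST (SE 0.15, adjusted p = 0.00267; -0.51 after quantile normalization) and -0.96 in RT against LT (SE 0.15, adjusted p = 0.00264), and ST against LT was not called (-0.16, interval -0.50 to 0.18, adjusted p = 0.473). Tfap2c had 10.2 and 9.65 scaled TPM in RT 1dMeioLC, 12.0 and 8.19 in ST and 12.3 and 12.0 in LT. No comparison of lines called Tfap2c at this stage, with log2 changes of -0.26 in ST against LT (interval -0.58 to 0.06, adjusted p = 0.196), 0.00 in RT against ST (interval -0.33 to 0.32) and -0.27 in RT against LT (interval -0.59 to 0.05, adjusted p = 0.243). The ST libraries were far apart, and without ST 1dMeioLC replicate 1 Tfap2c was called lower in ST than in LT (-0.52, adjusted p = 0.0114). So 1 of the 3 genes was called in ST against LT, where 33.9% of all genes were, 2 in RT against ST (34.6%), both lower (24.2% of all genes), and 1 in RT against LT (16.5%).

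Whether a change between lines differed between the 2 stages was tested as the change at 1dMeioLC minus that at 1dEB. For Prdm1 in ST against LT this difference was -0.96 (SE 0.21, limma adjusted p = 0.00559). For Prdm14 and Tfap2c that difference was not called (0.54, SE 0.22, adjusted p = 0.0757, and 0.41, SE 0.20, adjusted p = 0.143). Leaving out LT 1dMeioLC replicate 1 called it for Prdm14 (adjusted p = 0.0273), and leaving out ST 1dMeioLC replicate 2 called it for Tfap2c (adjusted p = 0.00805). In RT against ST the difference was called for Tfap2c (-1.31, SE 0.20, adjusted p = 8.84e-04) and for Prdm14 (-0.97, SE 0.22, adjusted p = 0.00651), and was not called for Prdm1 (-0.04, SE 0.21, adjusted p = 0.915). On deposited TPM the value for Tfap2c was -0.55 (adjusted p = 0.0406), and Prdm14 was no longer called (-0.41, adjusted p = 0.0928). Of all genes, 37.7% were called in the test of ST minus LT, where 1 factor was, and 34.5% in that of RT minus ST, where 22% of all genes and 2 of the 3 factors were called lower.

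Within a line, Tfap2c was lower and Prdm14 mostly higher at 1dMeioLC than at 1dEB, stages that also differ in culture, sorting and the gonadal cells present. The log2 change of Tfap2c was -2.22 in RT (SE 0.14, limma adjusted p = 2.11e-07), -0.92 in ST (SE 0.14, adjusted p = 2.38e-04) and -1.33 in LT (SE 0.14, adjusted p = 1.35e-05). The medians of all genes were -0.46, -0.21 and -0.17, so in all 3 lines Tfap2c lay below the general shift. Prdm14 stood at 0.13 in RT (SE 0.15, adjusted p = 0.49), 1.10 in ST (SE 0.15, adjusted p = 1.01e-04) and 0.56 in LT (SE 0.15, adjusted p = 0.00825), the last being lost without LT 1dEB replicate 1 (adjusted p = 0.0502) or LT 1dMeioLC replicate 1 (0.084). Prdm1 rose in LT alone among the 3 tests (0.67, SE 0.15, adjusted p = 0.00256), with -0.32 in RT (adjusted p = 0.0846, and 0.0151 without RT 1dEB replicate 2) and -0.28 in ST (adjusted p = 0.131). Deposited TPM, in which protein-coding genes hold less of the 1dEB libraries, gave other sizes. There Tfap2c stood at -1.10 in RT, -0.55 in ST and -0.68 in LT, all called. Prdm14 was called higher in RT as well (0.89, adjusted p = 1.02e-04) and stood at 0.97 in LT. Prdm1 was called higher in RT (0.38, adjusted p = 0.0121), against the sign of the scaled value, and stood at 1.01 in LT. The share of all genes called was 68.5% in RT, where 1 of the 3 factors was called, 63% in ST, where 2 were, and 65% in LT, where all 3 were. In LT 27.6% of all genes were called higher, as both Prdm genes were.

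All 3 factors were lower in the libraries of embryonic PGCs after the day of meiotic culture than in those before it. Prdm14 had 9.74 and 8.90 scaled TPM in PGC-1dMeioLC, against 33.1 and 33.5 in E10.5PGC, a log2 change of -1.73 (SE 0.15, limma adjusted p = 4.14e-06). Prdm1 had 7.59 and 7.12 scaled TPM after culture, against 18.1 and 19.0 in E10.5PGC (-1.23, SE 0.15, adjusted p = 5.27e-05). Tfap2c had 21.1 and 18.3 scaled TPM after culture, against 35.8 and 39.5 in E10.5PGC (-0.90, SE 0.14, adjusted p = 3.37e-04). The median of all genes moved up, by 0.28. The comparison called 53.9% of all genes and 15% of all genes lower, as it did all 3 factors. Over the same groups the summed fibroblast and stroma markers were at 689 to 707 scaled TPM in PGC-1dMeioLC and at 12.4 or slightly above in E10.5PGC, and their part in the fall was not tested.

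E10.5PGC also stood far above LT embryoid bodies in both Prdm genes. Their log2 changes in E10.5PGC against LT 1dEB were 2.52 for Prdm14 (SE 0.15, limma adjusted p = 1.63e-07) and 2.14 for Prdm1 (SE 0.15, adjusted p = 5.26e-07), while the median of all genes was -0.50. Tfap2c was not called there (0.23, 95% interval -0.09 to 0.55, adjusted p = 0.203), whereas deposited TPM called it higher (0.84, adjusted p = 3.29e-04). LT 1dMeioLC against E10.5PGC gave -1.96 for Prdm14 (SE 0.15, adjusted p = 1.68e-06), -1.47 for Prdm1 (SE 0.15, adjusted p = 1.41e-05) and -1.55 for Tfap2c (SE 0.14, adjusted p = 6.27e-06), while the median of all genes was 0.21. E10.5PGC against LT 1dEB called 61.5% of all genes and 16% of all genes higher, as it did both Prdm genes. LT 1dMeioLC against E10.5PGC called 53.1% of all genes and 16.8% of all genes lower, as it did all 3 factors.

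Meiocyte-like cells of stem cell origin were compared with those of embryonic origin, which had the same culture. Tfap2c was lower in all 3 stem cell lines than in PGC-1dMeioLC, at -0.92 in RT (SE 0.14, limma adjusted p = 8.23e-04), -0.91 in ST (SE 0.14, adjusted p = 6.72e-04) and -0.65 in LT (SE 0.14, adjusted p = 0.0103). The call in LT was lost without PGC-1dMeioLC replicate 1 (0.0732) or LT 1dMeioLC replicate 2 (0.0648). Prdm14 was above the embryonic level in ST (0.76, SE 0.15, adjusted p = 0.00297), below it in RT (-0.49, SE 0.15, adjusted p = 0.0303) and not called in LT (-0.23, 95% interval -0.57 to 0.11, adjusted p = 0.329). The lower Prdm14 of RT was called with all 4 libraries alone. Its adjusted p was 0.138 without PGC-1dMeioLC replicate 1, 0.0669 without replicate 2, 0.134 without RT 1dMeioLC replicate 1 and 0.0658 without replicate 2. On deposited TPM it was -0.32 (0.0825), and after quantile normalization -0.25 (0.214). Prdm1 was lower in RT (-1.20, SE 0.15, adjusted p = 2.15e-04) and not called in LT (-0.24, interval -0.58 to 0.09, adjusted p = 0.294). In ST it missed the threshold (-0.40, SE 0.15, adjusted p = 0.0574) and passed it on deposited TPM (-0.32, 0.0458) and after quantile normalization (-0.37, 0.0344). Macrophage markers moved with these comparisons. Their sum over 4 genes was 78.2 to 85.8 scaled TPM in RT 1dMeioLC, 29.1 to 36.5 in ST and 74.3 to 76.9 in LT, against 168 to 174 in PGC-1dMeioLC, where all 4 reached 1 TPM (3 in RT, 2 in ST and 3 in LT). Adgre1, a defining macrophage marker, averaged 4.05, 0.479 and 4.56 in RT, ST and LT, against 22.2 in PGC-1dMeioLC, no marker was listed at 0, and their part was not tested. The 3 comparisons share the PGC-1dMeioLC libraries and called 34.5% of all genes in RT, 40.5% in ST and 22.2% in LT. In RT, where all 3 factors were lower, 24.1% of all genes were.

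Ratios between the genes within a library do not depend on how a library is scaled. With 2 libraries a group, an exact permutation test could not reach the threshold for any of them, so they are given as a description. Tfap2c exceeded Prdm1 12.3 and 16.5 times in RT 1dEB, 3.11 and 2.79 times in ST 1dEB and 8.92 and 9.80 times in LT 1dEB. Thus the short-telomere embryoid bodies had the lowest Tfap2c to Prdm1 ratio of that stage, with no overlap. In E10.5PGC the ratio was 1.97 and 2.08, at higher levels of both genes. Tfap2c averaged 37.6 scaled TPM in E10.5PGC and 19.7 in ST 1dEB, and Prdm1 18.5 and 6.68. The part of endoderm and stroma cells in the ST ratio was not tested. The RT and LT ratios of 1dEB rest on low Prdm1 values, 1.135 and 0.8611 deposited TPM in RT and 1.467 and 1.193 in LT. In 1dMeioLC the Tfap2c to Prdm1 ratio was 3.47 and 4.10 in RT, 2.34 and 1.49 in ST and 1.90 and 2.11 in LT. It was 2.78 and 2.57 in PGC-1dMeioLC. Prdm14 exceeded Prdm1 2.06 and 2.82 times in RT 1dMeioLC and 3.00 and 3.17 times in ST 1dMeioLC, against 1.40 and 1.18 times in LT 1dMeioLC and 1.28 and 1.25 times in PGC-1dMeioLC. Both altered lines lay above wild type cells and embryonic cells in this ratio, RT with Prdm1 called lower than in LT and ST with Prdm14 called higher. ST 1dMeioLC was also the only one of the 8 groups in which Tfap2c was below Prdm14, with ratios of 0.779 and 0.470, against 1.36 and 1.79 in LT 1dMeioLC. As a share of the summed TPM of the 3 genes, Prdm14 made up 47.3% and 56.0% in ST 1dMeioLC and 32.5% and 27.5% in LT 1dMeioLC.

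**Figure D3:**
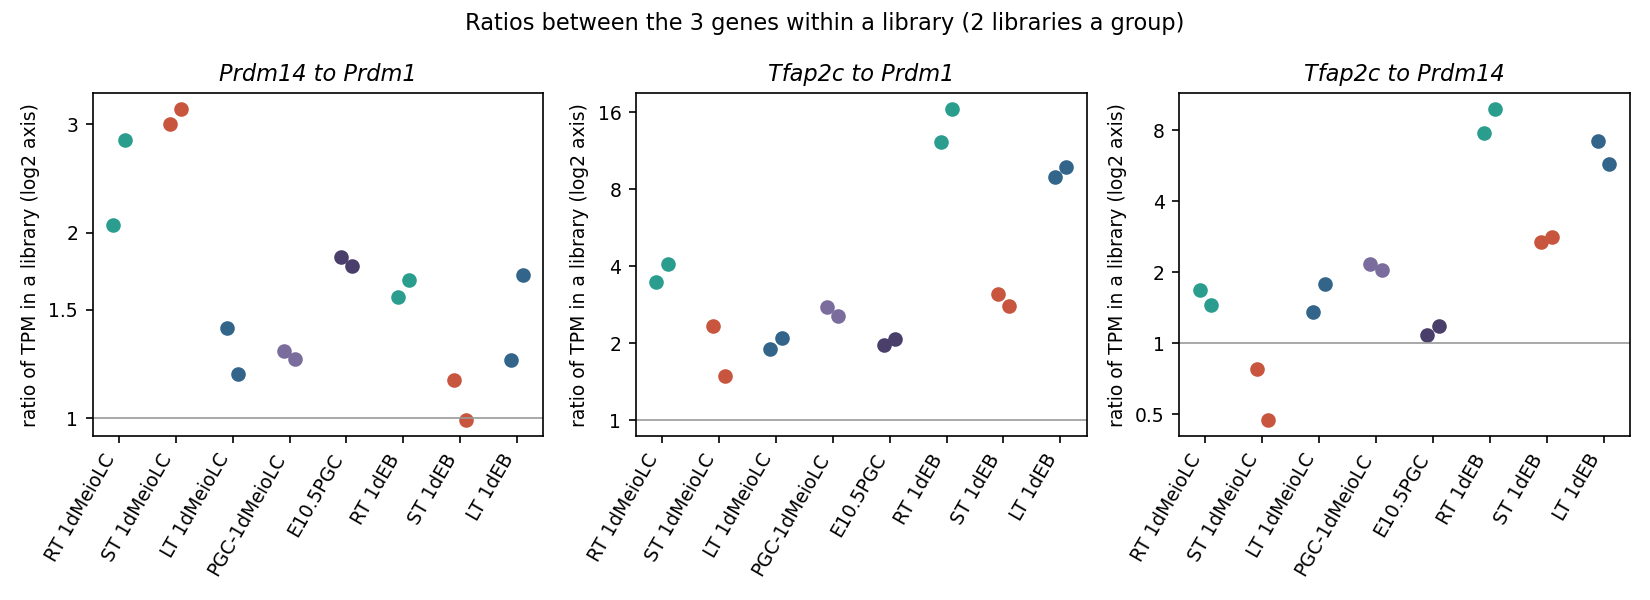
Ratios of TPM between pairs of the 3 genes (vertical axes, log2) in each library (points) of the 8 groups (horizontal axes). Tfap2c to Prdm1 was 3.11 and 2.79 in ST 1dEB between higher values in RT and LT 1dEB, and ST 1dMeioLC alone had Tfap2c below Prdm14 (0.779 and 0.470).

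The other genes of the pathway were read from lists of inducers, partners, PGC programme genes and genes repressed with the factors. Each is given beside the share of all genes called in the same direction. Among 13 inducers (BMP and WNT ligands, receptors, SMADs, the ID genes that BMP switches on, T and Otx2), 5 were higher, 2 lower and 6 not called in ST against LT 1dEB, where 22% of all genes were higher and 18.7% lower, and quantile normalization called 4 higher and 6 lower. Bmp2, a BMP ligand, averaged 31.0 scaled TPM in ST and 0.670 in LT (log2 change 4.27, limma adjusted p = 3.12e-08). Acvr1, a type I receptor for BMPs, was at 2.38 and Id3 at 1.61, whereas Bmp4, the ligand also given in the medium, was lower (-1.36) and so was T, the mesoderm factor brachyury (-0.99). RT against ST 1dEB gave 2 higher and 6 lower inducers (18.6% and 17% of all genes), and 1 and 10 on deposited TPM, with Bmp2 at -2.40 and Acvr1 at -1.76. The 2 higher were Bmp4 (0.55) and Otx2 (1.39), and on deposited TPM Otx2 alone was higher. Otx2 is counted in this list although it is a repressor of PGC fate in epiblast-like cells. At 1dMeioLC 6 inducers were higher and 2 lower in ST than in LT (20.1% and 13.7% of all genes), led by Bmp2 at -2.12, Bmp8b, another BMP ligand, at 0.85 and Smad5, a BMP signal transducer, at 0.67. Against ST, RT 1dMeioLC had 3 higher and 5 lower, where 10.4% of all genes were higher and 24.2% lower, and 3 and 2 after quantile normalization, with Bmp2 at 1.44 and Bmp4 at -1.30. The list medians were 0.05, -0.21, 0.42 and -0.19 in these comparisons, beside medians of all genes of 0.00, 0.04, 0.01 and -0.11.

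Partners of the factors were lower in ST embryoid bodies. All 5 (Cbfa2t2, a corepressor that Prdm14 binds, Prmt5, an arginine methyltransferase that Prdm1 binds, its cofactor Wdr77, and the germ line and pluripotency factors Sall4 and Lin28a) were called lower in ST than in LT 1dEB on scaled TPM, with a median of -0.46, and 3 of them on deposited TPM. Of all genes 18.7% were called lower there, and their median was 0.00. Lin28a had the largest change (-0.67), then Wdr77 (-0.55) and Sall4 (-0.46). Of the PGC programme genes, Sox2 (-0.39) and Alpl (-0.40) were lower by a like amount, while 3 of that list were higher. The fibroblast and stroma markers given above were highest in ST at 1dEB, and their part in the lower partners was not tested. RT against ST 1dEB called only Sall4, higher at 0.61 (18.6% of all genes were higher), while deposited TPM called 0 higher and 3 lower and quantile normalization 3 higher and 0 lower. Sall4 was again lower in ST than in LT at 1dMeioLC (-0.86), where 3 partners were lower and 1 higher (0 higher on deposited TPM), beside 13.7% and 20.1% of all genes.

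Genes of the PGC programme moved both ways. Of 10 such genes, 3 were higher, 6 lower and 1 not called in ST against LT 1dEB, beside 22% of all genes higher and 18.7% lower. Among the higher were Tdrd7, a germ granule protein (1.68), and Nanos3, an RNA-binding protein that PGCs need to survive (1.28), whereas Dppa3 was lower (-1.38). RT against ST 1dEB had 6 higher and 1 lower, beside 18.6% and 17% of all genes, but deposited TPM called 0 higher and 4 lower. The leading genes on scaled TPM were Ifitm3, a membrane protein of early PGCs whose gene has close paralogs that may share reads (-1.24), Kit, the receptor of SCF (0.79), and Nanos3 (0.71). At 1dMeioLC 4 were higher and 4 lower in ST against LT, beside 20.1% and 13.7% of all genes. There the pluripotency factors Pou5f1 (1.57) and Nanog (1.49) were higher, as Prdm14 was, while Dppa3 was lower (-4.03, limma adjusted p = 5.08e-10). RT against ST 1dMeioLC had Dppa3 at 3.42, Dnd1, an RNA-binding protein that keeps germ cells alive, at 0.97 and Pou5f1 at -0.94, with 4 genes of the list higher and 3 lower (6 and 2 after quantile normalization), beside 10.4% and 24.2% of all genes.

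Genes known to be repressed when Prdm14 is present moved both ways in embryoid bodies. In meiocyte-like cells their calls on scaled TPM leaned the same way as those of all genes. In ST against LT 1dEB 3 of 7 were lower (18.7% of all genes), among them the DNA methyltransferases Dnmt3b (-1.06) and Dnmt3a (-1.05), and 1 was higher (22% of all genes), the FGF receptor Fgfr1 (1.77), while quantile normalization called 5 lower. In ST against LT 1dMeioLC 4 were higher and 0 lower, with Fgfr1 at 0.85, Dnmt3a at 0.61 and Uhrf1, which recruits the maintenance methyltransferase, at 0.55. The list median was 0.55 and that of all genes 0.01, and of all genes 20.1% were higher and 13.7% lower. There deposited TPM called 3 higher and 1 lower, and quantile normalization 2 and 1. Of the calls over all genes, 59.4% were higher on scaled TPM, 49.6% on deposited TPM and 51.7% after quantile normalization. RT against ST 1dMeioLC had 4 lower and 1 higher, namely Dnmt3l, a cofactor of the methyltransferases, at 1.18, with Fgfr2 at -0.97 and Dnmt3a at -0.94. Its median was -0.55 and that of all genes -0.11, and of all genes 24.2% were lower and 10.4% higher. At 1dEB, RT against ST had 1 higher, Dnmt3a at 1.85, and 1 lower, Fgfr1 at -0.96 (18.6% and 17% of all genes), and deposited TPM called 1 higher and 5 lower.

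Of 10 somatic genes that Prdm1 represses in PGCs, 5 were higher and 0 lower in ST against LT 1dEB. Of all genes 22% were higher and 18.7% lower, and the median was 0.53 for the list and 0.00 for all genes. Snai1, a repressor of epithelial genes, averaged 168 scaled TPM in ST and 21.2 in LT (log2 change 2.93, limma adjusted p = 5.00e-06), and Cdx1, a posterior homeobox gene, was at 1.49. Mesp1, a mesoderm factor, was listed at 0 in both LT 1dEB libraries. RT against ST 1dEB had 6 lower and 0 higher, beside 17% and 18.6% of all genes, with a median of -0.88 for the list and 0.04 for all genes. They were led by Fgf8, a growth factor of the primitive streak (-2.55), Eomes, a mesendoderm factor (-1.68), and Hoxb1, a homeobox gene (-1.68). At 1dMeioLC 3 were higher and 0 lower in ST against LT (20.1% and 13.7% of all genes), led by Hoxb1 (2.46) and Cdx1 (1.59). RT against ST 1dMeioLC had 1 lower, Myc, a growth regulator (-0.88), and 1 higher, Mesp1, which was listed at 0 in both ST libraries, beside 24.2% and 10.4% of all genes. The counts of ST against LT and of RT against ST 1dEB were the same on deposited TPM and after quantile normalization. The fibroblast and stroma markers given above were also highest in ST at 1dEB, and their part in this list was not tested.

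**Figure D4:**
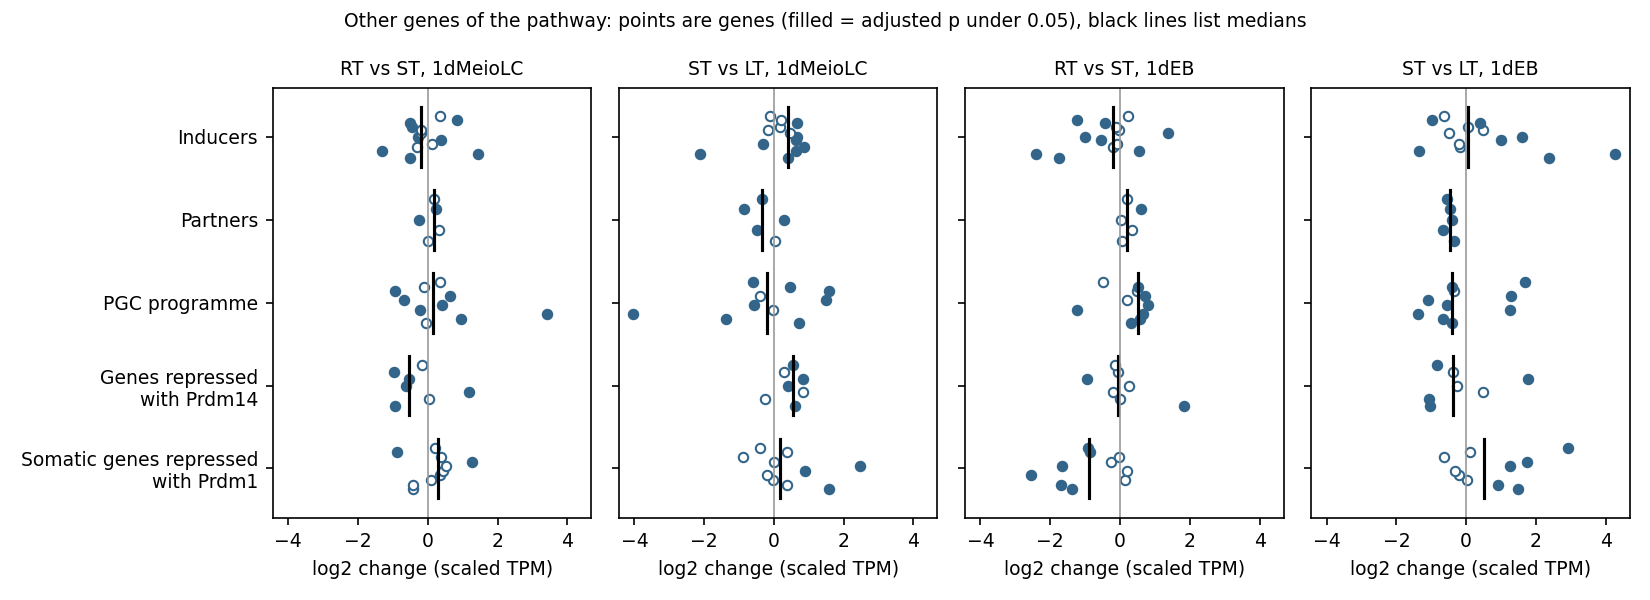
Log2 changes of scaled TPM (horizontal axes) of single genes (points, filled where the adjusted p was under 0.05) in 5 pathway lists (vertical axis) for 4 comparisons between lines; black lines are list medians. All 5 partners lay below 0 in ST against LT 1dEB, and the genes repressed with Prdm14 had medians of 0.55 in ST against LT and -0.55 in RT against ST at 1dMeioLC.

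Between RT and LT the lists also moved both ways. Of all genes 23.5% were higher and 14.4% lower at 1dEB, and 5.75% and 10.7% at 1dMeioLC. At 1dEB, 5 inducers were higher, among them the repressor Otx2, and 3 lower, led by T (-2.23) and Bmp2 (1.88). Deposited TPM turned this to 1 higher and 7 lower. Partners gave 1 higher and 2 lower, and PGC genes 2 and 2, led by Nanos3 (1.98) and Tdrd7 (1.19). Of the genes repressed with Prdm14 2 were higher and 2 lower, led by Dnmt3b (-1.06), and of the somatic genes 2 and 2, led by Fgf8 (-2.75) and Snai1 (2.02). On deposited TPM the lower calls numbered 5 of the partners, 6 of the PGC genes, 4 of the Prdm14 list and 3 of the somatic genes. At 1dMeioLC RT exceeded LT in 4 of the 10 somatic genes and was lower in 0, led by Hoxb1 (2.98). Inducers gave 4 higher and 2 lower, partners 0 and 1 (Sall4, -0.62), PGC genes 4 and 2 and the Prdm14 list 2 and 2, led by Dnmt3l (2.02).

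Relatives of the factors are given beside the shares of all genes called. Of 13 other Prdm genes, 9 passed the filter on low values. In ST against LT 1dEB 2 were higher and 0 lower, beside 22% and 18.7% of all genes. They were Mecom, a transcription factor of blood stem cells, at 1.14 and Prdm2 at 0.68, and quantile normalization called 2 lower as well. In RT against ST 1dEB 1 was higher and 1 lower (0 and 4 on deposited TPM), beside 18.6% and 17% of all genes. On scaled TPM both counts lay below the share of all genes called in either direction (40.7% and 35.7%). At 1dMeioLC 4 were higher and 1 lower in ST than in LT, beside 20.1% and 13.7% of all genes. In RT relative to ST 0 were higher and 5 lower (3 lower after quantile normalization), beside 10.4% and 24.2% of all genes. Whether the counts differ between stages was not tested. Prdm9, the histone methyltransferase that places meiotic recombination sites, was lower in RT 1dMeioLC than in ST (-1.22, limma adjusted p = 0.00385) and than in LT (-1.08, adjusted p = 0.0156). Its level was 8.23 scaled TPM in RT 1dMeioLC, 20.4 in ST, 18.5 in LT and 26.8 in PGC-1dMeioLC, against 0.958 in E10.5PGC. Of 4 other Tfap2 genes, Tfap2a alone passed the filter, at 2.98 scaled TPM in its highest library, and it was higher in ST than in LT 1dEB (1.01, adjusted p = 0.00691).

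Across the 8 group means, Prdm1 and Prdm14 had a Pearson's r of 0.848 on the log2 scale, and 33 of the other 13340 genes compared were more like Prdm1 than Prdm14 was. This r leans on E10.5PGC, which stood far above the next group in both genes. The means were 18.5 and 7.36 scaled TPM for Prdm1 and 33.3 and 16.4 for Prdm14. The r without E10.5PGC was not computed. Tfap2c had an r of 0.243 with Prdm1 and 0.027 with Prdm14. The genes most like Prdm1 were Eed (0.957), Anapc5 (0.946) and Ndufaf4 (0.934). Among those most like Prdm14 were Tvp23a (0.967) and Nubp1 (0.940), and most like Tfap2c were Nvl (0.977), Hspa9 (0.976) and Incenp (0.972). These correlations are descriptions over 8 points that share stages and lines.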

How the data were processed

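RNA libraries were made with the NEBNext Ultra RNA kit of NEB, as stated in the labels' protocols. The authors deposited 1 table of TPM, 1 column per library, each column used adding up to 1000000. Tools named in the submitters' processing notes are HISAT2, Bowtie2, RSEM, DESeq2 and R 3.4.2, with genome build mm10. The sources used here do not give their roles, the annotation counted or strand use. Depth is unknown, so no detection limit is given. Column names matched 1 sample each for 16 of the 28 samples, and 12 columns under 6 names that occur 2 times each were not used in any step.

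TPM were divided by the total of 21777 nuclear protein-coding genes (GENCODE M21, matched by symbol, 53310 of 53564 symbols with 1 record). Genes with at least 1 TPM as deposited in at least 2 libraries were tested with limma 3.58.1 in R 4.3.3 on log2(scaled TPM + 1), with group means, a trend on mean expression and a spread pooled over all 8 groups (8 residual, 2.17 prior degrees of freedom). Tests are 2-sided, with Benjamini-Hochberg adjustment over all genes within a comparison, and a call is an adjusted p under 0.05. The fit was also run on simulated libraries with normal noise of the fitted spread. These were drawn as independent, so they cannot check the scaling or how the real libraries relate.

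The 3 genes, the lists and the scaling were chosen with earlier results of these data known. From each list up to 3 called genes with the largest change were named. Some values of genes that this rule or the measure of likeness named are not reported here. Likeness was measured among genes with at least 5 scaled TPM in a group, leaving out symbols of the Gm and Rik kinds. Deposited TPM, quantile normalization, a pseudocount of 0.1, other filters, a replicate block and leaving out each library were tried as alternatives. Bmp4 and T at 1dEB in ST against LT, the levels of Prdm9, and marker sums without Dppa3 or the keratins, were added after their values were seen.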

Additional observations from a re-analysis of the deposited data

Results flagged for a closer look

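Prdm1, Prdm14 and Tfap2c each had 1 change between lines that differed between the stages in the test of the difference itself (limma, Benjamini-Hochberg adjusted). Prdm1 was higher in ST than in LT at 1dEB and not called at 1dMeioLC, a difference of -0.96 on the log2 scale (1dMeioLC minus 1dEB). Tfap2c was higher in RT than in ST at 1dEB and at 0.00 at 1dMeioLC, a difference of -1.31. Prdm14 in RT against ST had a difference of -0.97, being at -0.28 at 1dEB and at -1.25 at 1dMeioLC, and on deposited TPM this difference was not called (-0.41, adjusted p = 0.0928). Groups of 2 libraries could not be tested for a library that stands apart.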

How the results depend on the processing

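Of 306 results for the 3 genes under another scaling, pseudocount, filter or the replicate block, 279 kept their direction and their side of the threshold, as did 203 of 228 with 1 library left out. No result called both times changed sign. The values below are log2 changes with limma adjusted p, and where no cause is given it was not tested.

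On deposited TPM, Prdm14 in RT against ST 1dEB was -0.67 (0.00122), and in RT against LT 1dEB Prdm1 was -0.22, Prdm14 -0.17 and Tfap2c 0.17 (0.362). Tfap2c in RT against ST 1dMeioLC was 0.081. Against PGC-1dMeioLC, Prdm1 in ST was -0.32 (0.0458) and Prdm14 in RT -0.32 (0.0825). Between 1dMeioLC and 1dEB, Prdm1 was 0.020 in ST and 0.38 in RT (0.0121) and Prdm14 0.89 in RT (1.02e-04), and Tfap2c in E10.5PGC against LT 1dEB was 0.84 (3.29e-04). The stage difference of RT minus ST was 0.36 for Prdm1 and -0.41 for Prdm14 (0.0928). Quantile normalization gave 0.22 for Prdm14 in ST against LT 1dEB (0.258), -0.29 for Prdm1 and -0.14 for Prdm14 in RT against LT 1dEB, and 0.22 for Tfap2c in RT against ST 1dMeioLC. Against PGC-1dMeioLC it gave -0.37 for Prdm1 in ST (0.0344) and -0.25 for Prdm14 in RT (0.214). Between stages it gave 0.0059 for Prdm1 in ST, 0.28 for Prdm1 in RT (0.0671), 0.68 for Prdm14 in RT (0.00139) and 0.64 for Tfap2c in E10.5PGC against LT 1dEB (0.00277). The stage difference was 0.60 for Prdm14 in ST minus LT (0.0342) and 0.27 for Prdm1 in RT minus ST. With no filter on low values, which adds genes to the adjustment, Prdm14 in ST against LT 1dEB had the same 0.45 and an adjusted p of 0.0599.

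Replicate numbers did not pair libraries: correlations of same-numbered deviations ran from -0.0336 to 0.043 over 28 pairs of groups, 0 of them above 0.1. The fit with replicate as a block put Prdm1 in ST 1dMeioLC against PGC-1dMeioLC at -0.40 (0.0473) and changed no other call of the 3 genes.

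With 1 library left out, the lone library was assumed to vary like the other groups. Prdm14 ranged from 0.37 to 0.52 in ST against LT 1dEB, -0.0060 to 0.34 in RT against LT 1dEB, -0.55 to -0.43 in RT 1dMeioLC against PGC-1dMeioLC, and 0.37 to 0.75 in LT and -0.050 to 0.30 in RT between stages. Prdm1 ranged from -0.16 to 0.23 in RT against LT 1dEB and -0.51 to -0.13 in RT between stages. Tfap2c ranged from -0.52 to -0.011 in ST against LT 1dMeioLC, -0.26 to 0.25 in RT against ST 1dMeioLC and -0.75 to -0.55 in LT 1dMeioLC against PGC-1dMeioLC. The stage difference ranged from 0.35 to 0.73 for Prdm14 and 0.16 to 0.66 for Tfap2c in ST minus LT, and -0.23 to 0.16 for Prdm1 in RT minus ST. Calls over all genes ranged from 4876 (without LT 1dMeioLC replicate 2) to 5929 in ST against LT 1dMeioLC, against 7434 with all libraries, from 1441 to 2249 in RT against LT 1dMeioLC, against 3619, and from 2207 to 3115 in LT 1dMeioLC against PGC-1dMeioLC, against 4861, in both with any 1 of the 4 libraries left out. The share of calls that were higher was 54% on scaled and 69.7% on deposited TPM in ST against LT 1dEB, 52.2% and 10.3% in RT against ST 1dEB, and 62% and 25.7% (45.9% after quantile normalization) in RT against LT 1dEB. Between stages it was 34.2%, 66.5% and 51.1% on scaled TPM, deposited TPM and after quantile normalization in RT, 40.5%, 53% and 51.5% in ST, and 42.4% and 62.7% on scaled and deposited TPM in LT. On the 3 scales it was 26.1%, 48.2% and 51% in E10.5PGC against LT 1dEB, 36.1%, 81.9% and 50.9% in the stage difference of RT minus ST, 30%, 45.8% and 45.7% in RT 1dMeioLC and 37.6%, 62% and 48% in LT 1dMeioLC against PGC-1dMeioLC. It was 50.1% and 31.7% on scaled and deposited TPM in the stage difference of ST minus LT. Scaled TPM and quantile normalization gave 30.1% and 46% in RT against ST 1dMeioLC, 34.9% and 47.8% in RT against LT 1dMeioLC, 72.1% and 48.3% in PGC-1dMeioLC against E10.5PGC, and 68.3% and 47.4% in LT 1dMeioLC against E10.5PGC. Without read counts, counting error at these low levels cannot be stated.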
